A study of Mus musculus with 24 samples.

Results

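The Toll-like receptors Tlr1, Tlr2, Tlr3, Tlr4, Tlr6, Tlr7, Tlr8, Tlr9 and Tlr13, and the coreceptor Cd14, were followed in the cortex of mice with amyloid plaques. They were chosen by gene symbol, and all 10 of 10 had a row among the 24421 genes of the count table. RNA was sequenced from whole cortex of 24 mice aged 7.5 months, each mouse 1 library. All 24 carried 5xFAD, human transgenes with familial Alzheimer mutations that a neuronal promoter drives and that lead to amyloid plaques, so no cortex without plaques was analysed here. The 4 groups held 6 mice each: no knockout (WT), knockout of Trem2 (Trem2KO), knockout of Plcg2 (Plcg2KO), and heterozygous knockout of Plcg2 (Plcg2HET). WT, Trem2KO and Plcg2HET had 3 males and 3 females each, and Plcg2KO had 4 males and 2 females. Each library goes by its genotype and a code of sex letter and number, such as M1 or F3. TREM2 is a receptor for lipids on microglia, the macrophages that reside in the brain, and PLCG2 is a phospholipase that relays its signal. The comparisons address how the levels of these transcripts in cortex with plaques differ when either gene is lost. A change in the response to amyloid cannot be told apart from a change that is present without amyloid.

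Toll-like receptors recognise molecules of microbes and of damaged tissue. TLR2 works at the cell surface in a pair with TLR1 or TLR6 and binds lipopeptides. TLR4 binds lipopolysaccharide together with MD-2, the product of Ly96, after CD14 has handed the ligand over. TLR3, TLR7, TLR8, TLR9 and TLR13 sit in endosomes and sense nucleic acids. All of them but TLR3 signal through the adaptor MYD88, whereas TLR3 uses TICAM1 and TLR4 uses both, and both routes lead to NF-kB and to interferon regulatory factors. In the brain microglia are the main source of most of these transcripts, and CD14, TLR2 and TLR4 have been described as parts of the receptor complex through which microglia bind fibrillar amyloid.

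The targeted genes and the depth were examined first. Plcg2 fell in Plcg2KO to 0.984 ± 0.159 CPM, the count scaled to library size with TMM factors, from 11.8 ± 3.14 in WT (mean ± SD, n = 6). Trem2 fell in Trem2KO to 6.01 ± 1.21 CPM from 82.5 ± 34.9. In the libraries labelled Plcg2HET, Plcg2 stood at 12.0 ± 4.98 CPM, 101.4% of WT (log2 fold change 0.02, 95% interval -0.33 to 0.37). Counts cover all exons of a gene, and the labels do not name the deleted part, so the Plcg2 level did not distinguish these libraries from WT. Total counts, in units of 1e6, were 43.9 to 71.3 in WT, 54.8 to 83.0 in Trem2KO, 49.4 to 81.5 in Plcg2KO and 36.3 to 68.9 in Plcg2HET. Rn45s, a ribosomal RNA precursor, took over 5% of counts in 3 libraries and at most 3.50% in the others. The 3 were WT F1 (9.59%), Plcg2HET F1 (5.3%) and Plcg2HET F3 (29.0%). Of the 10 members 9 passed the filter on low counts, and Tlr8 did not. Cortex is a mixture of cells, and fewer microglia cannot be told apart from less RNA per microglial cell in these libraries.

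Tlr2 and Cd14 carried the largest differences of the 9 members tested. Tlr2 (chromosome 3, 83836272 to 83841608, minus strand, mm10, 3 exons) ranged from 3.58 to 10.4 CPM in WT, with a median of 6.72. It ranged from 0.998 to 2.63 CPM in Plcg2KO, with a median of 1.32, and from 1.24 to 3.09 CPM in Trem2KO, with a median of 2.50. Every Plcg2KO and every Trem2KO library lay below the lowest WT library, so neither knockout overlapped WT. The log2 fold change was -2.03 in Plcg2KO (SE 0.20, adjusted p = 7.08e-08, edgeR) and -1.52 in Trem2KO (SE 0.19, adjusted p = 5.16e-06). The mean levels were 21.7% and 33.6% of the WT mean.

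Cd14 (chromosome 18, 36725064 to 36726815, minus strand, mm10, 2 exons) encodes a lipid-anchored coreceptor that presents ligands to TLR4 and to TLR2. Its level ran from 8.75 to 21.6 CPM in WT (median 11.6), from 2.12 to 4.09 CPM in Plcg2KO (median 3.27) and from 3.31 to 6.07 CPM in Trem2KO (median 5.44). Both knockouts lay wholly below WT here as well. Cd14 fell by 1.92 on the log2 scale in Plcg2KO (SE 0.21, adjusted p = 2.42e-07, edgeR) and by 1.36 in Trem2KO (SE 0.20, adjusted p = 3.39e-05). Cd14 and Tlr2 were the 2 members whose libraries did not overlap WT in either knockout. Over all 16316 tested genes, every library was lower than WT for 4.75% in Plcg2KO and for 5.23% in Trem2KO. In males alone Tlr2 was still lower, at -1.83 in Plcg2KO and -1.29 in Trem2KO (adjusted p = 0.000704 and 0.031, edgeR), and so was Cd14, at -1.55 and -1.16 (adjusted p = 0.000423 and 0.0204). In females alone the log2 fold changes were -2.28 and -1.71 for Tlr2 and -2.55 and -1.52 for Cd14.

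**Figure D1:**
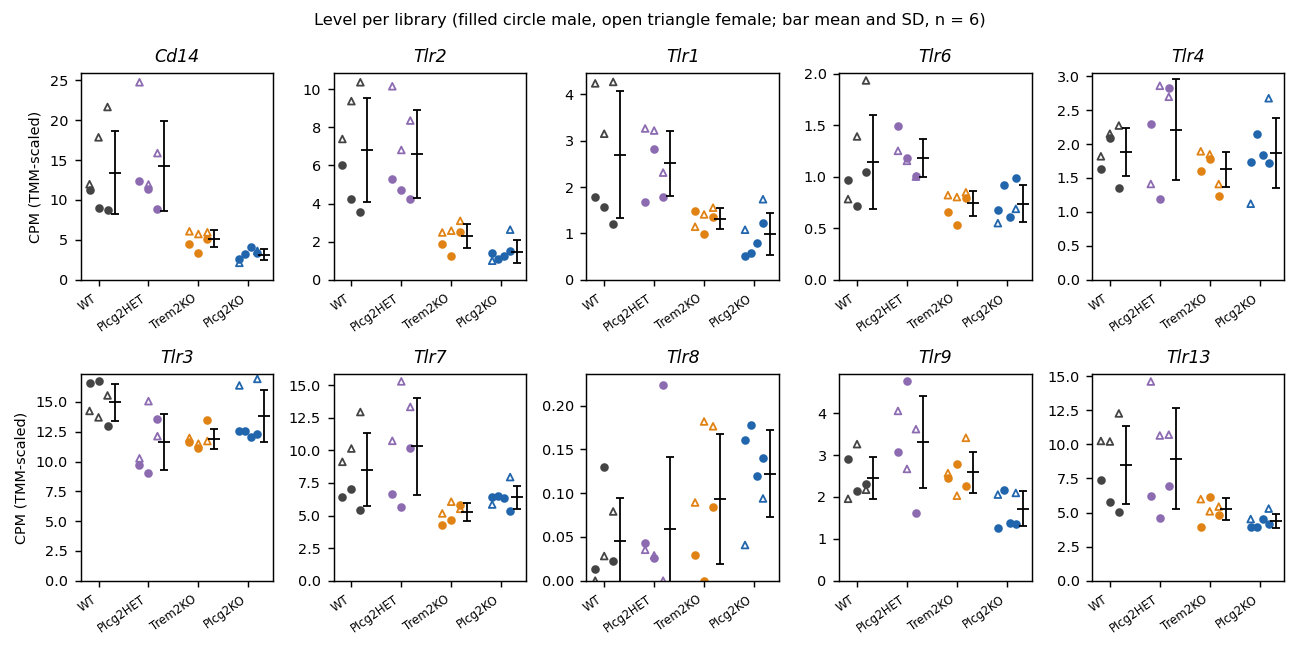
Level of each member in CPM (y axis, linear, from 0) in every library, by genotype (x axis, n = 6 each). Filled circles are males, open triangles females, and the bars show mean and SD. The Plcg2KO and Trem2KO libraries lie below all WT libraries for Cd14 and Tlr2, and for the other members both knockouts overlap WT.

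The promoter of Tlr2 is shown because Tlr2 is the receptor that differed most, together with those of Tlr1 and Tlr13, which were lower in both knockouts as well, and of Tlr3, whose level in Plcg2KO was near that of WT. The windows are from RefSeq on assembly GRCm38.p6, whose coordinates are those of mm10, and run from 250 bases before to 50 after the annotated start, 5′ to 3′ on the strand of the gene. Capitals mark matches to the NF-kB consensus in Tlr2 and Tlr3 and to GAGGAA, the core bound by PU.1 and other ETS factors, in Tlr1 and Tlr13. They lie at chr3:83841559-83841858 (minus strand) for Tlr2, chr5:64933509-64933808 (minus) for Tlr1, chrX:106143025-106143324 (plus) for Tlr13 and chr8:45410331-45410630 (minus) for Tlr3.
Tlr2: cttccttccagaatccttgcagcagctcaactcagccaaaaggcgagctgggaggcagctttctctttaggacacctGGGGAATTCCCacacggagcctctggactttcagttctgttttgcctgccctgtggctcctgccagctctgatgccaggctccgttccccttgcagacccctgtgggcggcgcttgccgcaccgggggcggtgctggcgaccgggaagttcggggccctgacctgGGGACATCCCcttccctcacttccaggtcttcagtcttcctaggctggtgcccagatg
Tlr1: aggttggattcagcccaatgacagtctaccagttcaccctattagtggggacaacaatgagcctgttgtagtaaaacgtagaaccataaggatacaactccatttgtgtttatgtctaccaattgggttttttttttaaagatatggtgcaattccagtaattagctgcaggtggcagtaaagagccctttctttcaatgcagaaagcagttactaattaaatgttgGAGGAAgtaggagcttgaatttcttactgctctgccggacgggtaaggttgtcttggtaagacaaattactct
Tlr13: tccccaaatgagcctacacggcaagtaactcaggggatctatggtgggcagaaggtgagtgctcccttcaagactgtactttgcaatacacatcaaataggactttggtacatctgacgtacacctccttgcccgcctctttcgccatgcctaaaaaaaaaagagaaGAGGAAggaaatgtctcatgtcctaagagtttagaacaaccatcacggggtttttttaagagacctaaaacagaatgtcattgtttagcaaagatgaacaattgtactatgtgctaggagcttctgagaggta
Tlr3: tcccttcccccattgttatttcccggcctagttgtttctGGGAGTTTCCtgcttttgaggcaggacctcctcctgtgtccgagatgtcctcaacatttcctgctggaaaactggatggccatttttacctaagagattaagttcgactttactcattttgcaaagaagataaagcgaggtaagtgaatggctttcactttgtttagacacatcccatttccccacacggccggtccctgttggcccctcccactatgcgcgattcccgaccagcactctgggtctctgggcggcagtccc

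The windows of 7 members were searched, 9 windows in all since Tlr1 and Tlr6 had a pair each, for 4 motifs on both strands. Cd14 was left out of the search, and Tlr4 and Tlr7 had no window. The NF-kB consensus, spelled out by its name alone, was present in Tlr2 and Tlr3 and in 8.46% of all 32851 windows of the same length. In Tlr2 a pair of overlapping matches began at -173 and -172 from the start and a further match at -8, and in Tlr3 the match began at -211. GAGGAA was present in Tlr1 (at -23, in 1 of its windows), Tlr8, Tlr9 and Tlr13 (at -83), against 28.3% of all windows. The interferon regulatory factor motif GAAANNGAA was present in Tlr6 and Tlr8 (8.56% of all windows), and the AP-1 motif TGANTCA in Tlr9 (7.81%). A match is a run of letters and was not tested as a binding site.

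Tlr1 and Tlr6, the partners of Tlr2, lie 19536 bases apart on chromosome 5. Tlr1 (64924680 to 64933558, minus strand, mm10) ran from 1.20 to 4.27 CPM in WT (median 2.47), 0.517 to 1.74 in Plcg2KO (median 0.933) and 0.982 to 1.56 in Trem2KO (median 1.38). The ranges met, since WT M3, at 1.20 CPM, lay within the ranges of both knockouts and WT M1 and M2, at 1.78 and 1.57, lay within or just above them, while the 3 WT females lay above, from 3.15 CPM. Tlr1 fell by 1.28 on the log2 scale in Plcg2KO (SE 0.24, adjusted p = 0.000505, edgeR) and by 0.90 in Trem2KO (SE 0.23, adjusted p = 0.00848). In males alone it stood at -0.98 and -0.25, neither of them called (adjusted p = 0.135 and 0.776), and in females alone it was -1.43 and -1.48 (adjusted p = 0.00815 and 0.00246).

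Tlr6 (64953095 to 64960034, minus strand) was low in all groups, from 0.721 to 1.94 CPM in WT, 0.550 to 0.993 in Plcg2KO and 0.534 to 0.849 in Trem2KO. Both knockouts overlapped WT. Its log2 fold changes, -0.58 and -0.61, did not pass the test (adjusted p = 0.0842 and 0.0566, edgeR). In Trem2KO it was called in 4 of 11 other settings, DESeq2 among them (adjusted p = 0.0371). Against the libraries labelled Plcg2HET the values were -0.65 and -0.67, with adjusted p of 0.0251 and 0.0367. Those calls were lost without any 1 of 4 libraries for Plcg2KO (M3, F1, F2 and Plcg2HET M1, adjusted p up to 0.081) and of 8 for Trem2KO (M1, M2, F1, F2, F3 and Plcg2HET M1, M2, F1, adjusted p up to 0.0893).

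Tlr4 (chromosome 4, 66827811 to 66842796, plus strand), the lipopolysaccharide receptor that CD14 serves, did not follow Cd14. Its level was 1.36 to 2.27 CPM in WT (median 1.95), 1.12 to 2.68 in Plcg2KO (median 1.78) and 1.23 to 1.89 in Trem2KO (median 1.69). All 4 groups overlapped. The log2 fold change was 0.02 in Plcg2KO (95% interval -0.41 to 0.46, adjusted p = 0.959) and -0.22 in Trem2KO (-0.64 to 0.21, adjusted p = 0.531). Tlr4 was the 1 member of the 9 tested that was called neither between any pair of genotypes nor in the test of any difference among the 4 (adjusted p = 0.295, edgeR).

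Of the endosomal receptors, Tlr13 was lower in both knockouts. Tlr13 (chromosome X, 106143275 to 106160493, plus strand), a receptor of rodents for bacterial ribosomal RNA, ran from 5.06 to 12.3 CPM in WT (median 8.79), 3.90 to 5.29 in Plcg2KO (median 4.34) and 3.93 to 6.13 in Trem2KO (median 5.26). WT M3, at 5.06 CPM, lay within the ranges of both knockouts and WT M2, at 5.79, within that of Trem2KO alone, and the other 4 WT libraries lay above both. Tlr13 fell by 0.80 in Plcg2KO (SE 0.16, adjusted p = 0.00121, edgeR) and by 0.64 in Trem2KO (SE 0.16, adjusted p = 0.00704). In males alone the values were -0.57 and -0.29 (adjusted p = 0.147 and 0.576).

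Tlr7 (chromosome X, 167304926 to 167330571, minus strand), a receptor for single-stranded RNA, was called in Trem2KO and not in Plcg2KO. WT ran from 5.40 to 12.9 CPM (median 8.08), Trem2KO from 4.24 to 6.06 (median 5.34) and Plcg2KO from 5.35 to 7.95 (median 6.37). Both knockouts overlapped the lower WT libraries. The log2 fold change was -0.65 in Trem2KO (SE 0.16, adjusted p = 0.00528) and -0.28 in Plcg2KO (SE 0.16, adjusted p = 0.256). In males alone the Trem2KO value was -0.36 and was not called (adjusted p = 0.506, edgeR), and in females alone it was -0.92 (adjusted p = 0.0109). Plcg2KO against Trem2KO differed by 0.37, which did not pass (adjusted p = 0.0963), and with offsets for GC content and exon length Tlr7 was called in Plcg2KO too (-0.40, adjusted p = 0.0295).

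Tlr3 (chromosome 8, 45395665 to 45410539, minus strand), the receptor for double-stranded RNA, kept within a narrow range. It stood between 13.0 and 16.8 CPM in WT (median 14.9), 12.1 and 16.9 in Plcg2KO (median 12.6) and 11.1 and 13.5 in Trem2KO (median 11.7). Both knockouts overlapped WT. The log2 fold change was -0.11 in Plcg2KO (SE 0.12, adjusted p = 0.59) and -0.33 in Trem2KO (SE 0.12, adjusted p = 0.0497). The latter call was lost without any 1 of 15 libraries (WT M1, M2, F1, F3, Trem2KO M1, M2, F1, F2, F3, Plcg2KO M1, M2, M3, M4, F2 and Plcg2HET F3, adjusted p up to 0.136) and held in 5 of 12 other settings. It was lost with GC and length offsets (-0.20, adjusted p = 0.0729), without a filter on low counts (adjusted p = 0.0635), without the sex term (0.0577), with the replicate block (0.0761), without the 3 libraries rich in Rn45s (0.0612), and in males (0.398) and females alone (0.326). With the GC and length offsets Tlr3 was called in Plcg2KO (-0.26, adjusted p = 0.0161).

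Tlr9 (chromosome 9, 106222598 to 106226876, plus strand), the receptor for unmethylated CpG DNA, was 1.96 to 3.26 CPM in WT (median 2.24), 1.26 to 2.17 in Plcg2KO (median 1.72) and 2.03 to 3.41 in Trem2KO (median 2.51). The 3 lowest libraries were of Plcg2KO, and both knockouts overlapped WT. Its log2 fold changes against WT, -0.50 and 0.06, did not pass (adjusted p = 0.107 and 0.873, edgeR). The fit of Plcg2KO and WT alone called the first of them (adjusted p = 0.047). Tlr8 (chromosome X, 167242732 to 167263788, minus strand), which lies 41137 bases from Tlr7, was barely detected. It had 0 to 14 reads per library, with 3 of 24 libraries at 0. A count of 0 allows up to 3 reads, at most 0.0827 CPM by total counts, without the TMM factors. Summed over 6 libraries it had 15 reads in WT, 47 in Plcg2KO, 37 in Trem2KO and 21 in the libraries labelled Plcg2HET. Without the filter on low counts its log2 fold changes were 1.32 and 1.10 and did not pass (adjusted p = 0.307 and 0.41, edgeR), so a difference was not detectable at this depth.

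Counted over the 9 members tested, 4 were lower in Plcg2KO than in WT (Tlr1, Tlr2, Tlr13, Cd14), against 7.63% of all 16316 genes, and 0 were higher, against 5.44%. In Trem2KO 6 were lower (the same 4 with Tlr3 and Tlr7), against 8.16% of all genes, and 0 higher, against 7.56%. The median log2 fold change was -0.58 in Plcg2KO and -0.64 in Trem2KO, where the median over all tested genes was -0.0035 and -0.024. In males alone the counts were 2 and 2, Tlr2 and Cd14 in both, against 2.25% and 0.44% of all genes. The difference between the sexes in a genotype's effect was called for 0.0% of all genes in each of the 3 comparisons with WT (edgeR), and at an unadjusted p under 0.05 it was found for 4 members in Plcg2KO, 2 in Trem2KO and 1 in Plcg2HET, against 7.79%, 2.91% and 5.44% of all genes. The test of any difference among the 4 genotypes called 8 of 9 members, against 45.7% of all genes.

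**Figure D2:**
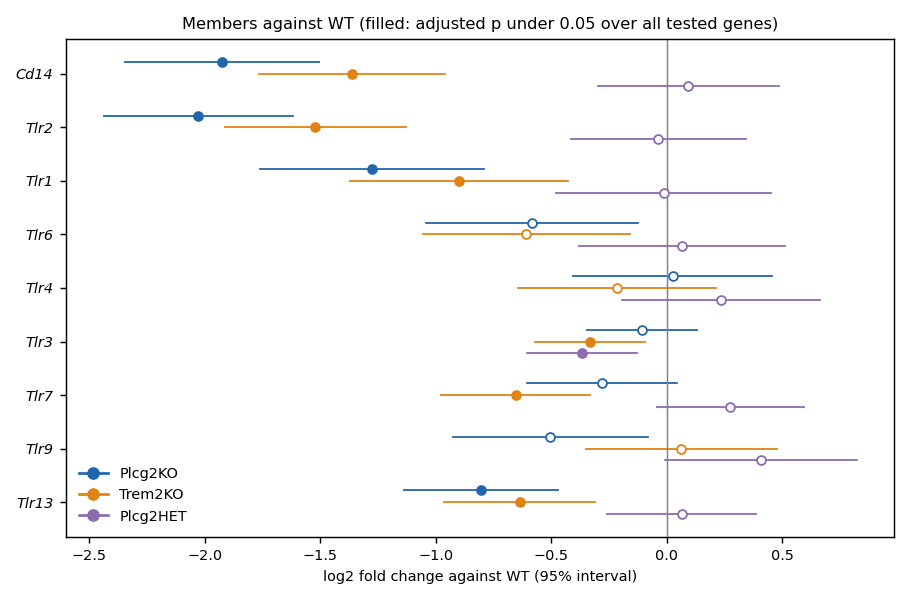
Log2 fold change against WT (x axis) for the 9 members that passed the filter (y axis), with 95% intervals from the edgeR fit of all 24 libraries; filled points have an adjusted p under 0.05 over all tested genes. Cd14 and Tlr2 lie farthest to the left in both knockouts, and in the libraries labelled Plcg2HET the 1 filled point is Tlr3.

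Microglial genes fell with the receptors. Of 15 pan-microglial markers 15 were lower in Plcg2KO and 14 in Trem2KO, with a median log2 fold change of -1.10 and -0.83, and of 10 homeostatic microglial genes 8 were lower in each. The summed level of the 15 markers was 1133 to 1968 CPM in WT, 592.5 to 1019 in Plcg2KO, 747.2 to 1099 in Trem2KO and 1269 to 2229 in the libraries labelled Plcg2HET. Each member was therefore also expressed relative to these markers, as log2(CPM + 0.5) minus the mean of the same value over the 15 markers in the same library. These values were compared by exact permutation over the 924 splits of 6 against 6 libraries (two-sided, smallest possible p 0.00216), with adjustment over all 16316 genes. Unlike the edgeR fit, the permutation took no account of sex, which was not balanced in Plcg2KO (4 males and 2 females).

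Tlr2 and Cd14 were lower relative to the markers as well. The ratio of Tlr2 ran from -3.30 to -2.73 in WT, -3.98 to -3.44 in Plcg2KO and -3.90 to -3.28 in Trem2KO, on the log2 scale. Plcg2KO did not overlap WT, and Trem2KO overlapped it narrowly. The mean difference was -0.73 in Plcg2KO (n = 6, exact permutation p = 0.00216, adjusted p = 0.00361) and -0.49 in Trem2KO (exact permutation p = 0.00649, adjusted p = 0.00988). The ratio of Cd14 ran from -2.49 to -1.73 in WT, -3.16 to -2.27 in Plcg2KO and -2.77 to -2.33 in Trem2KO, and both knockouts overlapped WT. The mean difference was -0.76 in Plcg2KO (n = 6, exact permutation p = 0.00433, adjusted p = 0.00528) and -0.41 in Trem2KO (exact permutation p = 0.0152, adjusted p = 0.0198). Over all tested genes 0.343% were lower relative to the markers in Plcg2KO and 0.294% in Trem2KO. The reference itself fell, so only a gene that fell further can be lower on this scale. These shares are therefore small by construction, and nothing is read from them. Most genes were called higher on this scale, 97.2% in Plcg2KO and 90.1% in Trem2KO, so the adjustment raised p only a little. The adjusted p on this scale therefore corrects little for the number of genes tested. Tlr2 and Cd14 kept their calls without each of the 24 libraries in turn and with the 10 homeostatic genes as the reference. Against the homeostatic genes Tlr2 stood at -1.14 and -0.78 and Cd14 at -1.17 and -0.70.

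Tlr1 was not called relative to the markers. Its ratio differed by 0.07 in Plcg2KO and 0.14 in Trem2KO, and neither passed (n = 6, exact permutation p = 0.66 and 0.396, adjusted p = 0.662 and 0.4). The sign depended on the settings, at -0.35 and -0.15 against the homeostatic genes and at -0.18 in Plcg2KO with a pseudocount of 0.1. The other 6 members were higher relative to the markers in both knockouts, among them Tlr4 by 1.09 and 0.68, Tlr3 by 1.0 and 0.53 and Tlr13 by 0.29 and 0.25. So were 97.2% of all tested genes in Plcg2KO and 90.1% in Trem2KO, since the reference itself fell, and nothing is read from that count. The sign of Tlr13 depended on the reference too, at -0.12 in Plcg2KO and -0.04 in Trem2KO against the homeostatic genes (adjusted p = 0.256 and 0.727, exact permutation), and Tlr7 in Trem2KO stood at -0.05 there (adjusted p = 0.694).

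**Figure D3:**
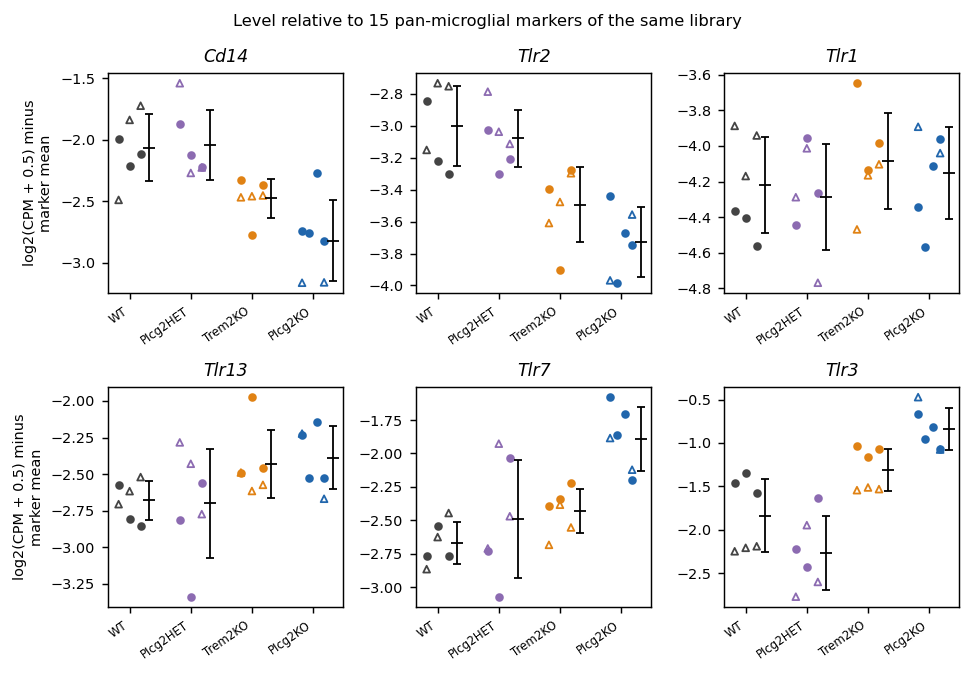
Level of 6 members relative to 15 pan-microglial markers of the same library (y axis, log2 difference, scale differs by panel) by genotype (x axis, n = 6 each); filled circles are males, open triangles females, bars mean and SD. Cd14 and Tlr2 are lower in both knockouts, Tlr1 overlaps WT, and Tlr3 is higher, as most genes of the cortex are on this scale.

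Markers of other cells were read beside these values. Of 10 genes of border-associated macrophages, which also carry Toll-like receptors, 0 were lower and 4, 5 and 6 were higher in Plcg2KO, Trem2KO and Plcg2HET. Their summed level was 27.2 to 37.4 CPM in WT, 38.7 to 46.8 in Plcg2KO, 43.6 to 57.6 in Trem2KO and 36.8 to 53.4 in the libraries labelled Plcg2HET. Of 10 monocyte and neutrophil genes 4 passed the filter, with 1 lower and 1 higher in Plcg2KO (Csf3r, which microglia also express, at -1.40, and S100a9 at 2.46) and 1 lower in Trem2KO (Csf3r, -0.86). The sum of this list was 14.0 to 27.3 CPM in WT, 6.34 to 12.9 in Plcg2KO, 9.25 to 15.6 in Trem2KO and 16.2 to 30.2 in Plcg2HET, and Chil3 was at 0 in all 6 WT libraries and Camp in all 6 labelled Plcg2HET. The median log2 fold change of the 4 tested genes was 0.83 in Plcg2KO and 0.21 in Trem2KO, so the lower sums did not go with the list median. Of 8 lymphocyte genes 5 passed and 0 were called against WT (edgeR), with sums between 0.41 and 1.5 CPM in all groups and Ms4a1 at 0 in all 6 WT libraries. Endothelial genes were lower in Plcg2KO for 4 of 6, with sums of 66.8 to 90.2 CPM against 84.7 to 155 in WT, and none was called in Trem2KO. Of 8 astrocyte genes 1 was lower in Plcg2KO (Gfap, an intermediate filament of reactive astrocytes, -1.08, adjusted p = 0.00187, edgeR) and 2 were higher (Slc4a4, 0.65, and Slc1a3, 0.46), with sums of 1866 to 2783 CPM against 2092 to 3530 in WT. Of 8 neuronal genes 1 was higher there (Gad2, 0.74), with sums of 8678 to 10240 CPM against 7003 to 9096, and of 6 oligodendrocyte genes 1 was lower (Mbp, -0.37), with sums of 3628 to 4567 CPM against 4393 to 5061. In Trem2KO the 1 gene called in these 3 lists was Mobp, a myelin gene (-0.37), with sums of 2138 to 3212, 7076 to 8531 and 3861 to 4566 CPM for the 3 lists. Their part in the differences of the receptors was not tested.

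Levels of the receptors can be set against each other only per length, for which the deposited TPM, which correct for transcript length, were used. Summed over the 9 receptors the TPM was 26.6 ± 4.89 in WT, 17.2 ± 2.79 in Plcg2KO, 16.7 ± 0.812 in Trem2KO and 26.3 ± 6.79 in the libraries labelled Plcg2HET (SD, n = 6). In WT the order of mean TPM was Tlr3 (7.24), Tlr2 (5.28), Tlr7 (4.58), Tlr13 (4.41), Tlr1 (1.89), Tlr9 (1.42), Tlr4 (0.903), Tlr6 (0.838) and Tlr8 (0.0267). The ranges of each pair of neighbours in that order overlapped, except those of Tlr6 and Tlr8. The receptors share their libraries, and within every WT library Tlr13 lay above Tlr1, Tlr9 above Tlr4 and Tlr6 above Tlr8. The other pairs of neighbours changed places in some WT libraries. In Plcg2KO the order was Tlr3 (6.74), Tlr7 (3.64), Tlr13 (2.34), Tlr2 (1.19), Tlr9 (1.04), Tlr4 (0.975), Tlr1 (0.718), Tlr6 (0.512) and Tlr8 (0.075). Tlr2 made up 19.4 ± 3.82% of the summed TPM in WT, 6.77 ± 1.96% in Plcg2KO and 10.5 ± 2.32% in Trem2KO, and its highest shares in the knockouts, 9.53% and 13.1%, lay below its lowest in WT, 14.6%. Tlr3 made up 28.1 ± 6.91% in WT, 39.2 ± 3.38% in Plcg2KO and 33.7 ± 2.62% in Trem2KO. Shares sum to 100% in each library, so a lower share of 1 receptor raises the others. Cd14, outside this sum, stood at 18.9 ± 6.78 TPM in WT, 4.70 ± 1.06 in Plcg2KO and 7.22 ± 1.41 in Trem2KO.

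**Figure D4:**
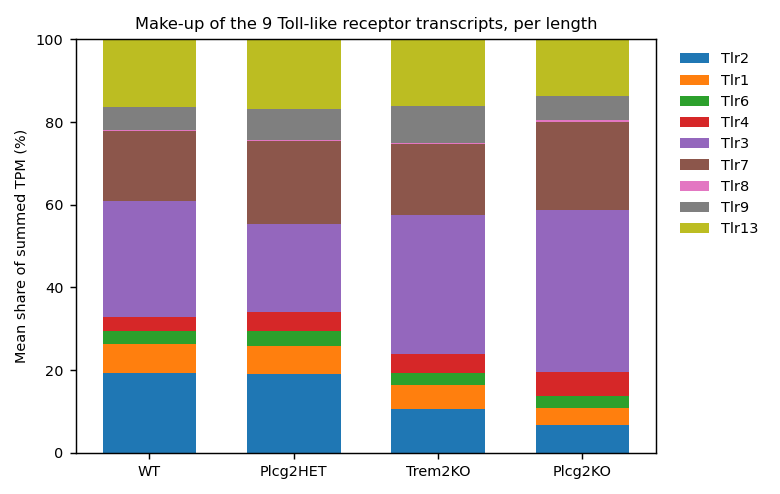
Mean share of each receptor in the summed TPM of the 9 Toll-like receptors (y axis, percent, n = 6 libraries per bar) by genotype (x axis). The share of Tlr2 is 19.4% in WT and 6.77% in Plcg2KO, and that of Tlr3 28.1% and 39.2%.

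The libraries labelled Plcg2HET differed little from WT in these genes. Tlr2 stood between 4.26 and 10.2 CPM there (median 6.05) and Cd14 between 8.89 and 24.7 (median 12.2), ranges that covered those of WT in large part. The log2 fold change was -0.04 for Tlr2 (95% interval -0.41 to 0.34) and 0.09 for Cd14 (-0.30 to 0.48), with adjusted p of 0.919 and 0.789. Of 9 members 1 was lower, against 7.13% of all genes, and 0 were higher, against 10.9%, and for 1.64% of genes every library lay below WT, no member among them. The 1 was Tlr3, between 9.06 and 15.1 CPM (median 11.2) and overlapping WT, at -0.37 (SE 0.12, adjusted p = 0.0283, edgeR). That call was lost without any 1 of WT M1, M2 and Plcg2HET M1, M2, F1, F3 (adjusted p up to 0.079), without the 3 libraries rich in Rn45s (-0.33, adjusted p = 0.158) and in the fit of these 2 groups alone (-0.35, adjusted p = 0.14). Relative to the markers 0 members were called either way by exact permutation (0 at an unadjusted p under 0.05, against 4.54% of all genes), and 0.0% of all genes.

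Both knockouts were also set against the libraries labelled Plcg2HET, which is a comparison of labels since Plcg2 did not differ between Plcg2HET and WT. In Plcg2KO 7 members were lower, all tested but Tlr3 and Tlr4, against 20.2% of all genes, and 0 were higher, against 15%. Tlr9 was among the 7, at -0.91 (SE 0.21, adjusted p = 0.0016, edgeR). In Trem2KO 6 were lower (Tlr1, Tlr2, Tlr6, Tlr7, Tlr13 and Cd14), against 9.28%, and 0 higher, against 6.27%. Every library was lower for Cd14, Tlr2 and Tlr6 in Plcg2KO, against 4.44% of all genes, and for Cd14, Tlr2, Tlr1 and Tlr6 in Trem2KO, against 3.17%. These comparisons share their knockout libraries with those against WT.

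The knockouts were then compared with each other. Tlr2 was lower in Plcg2KO than in Trem2KO by 0.51 on the log2 scale (95% interval -0.92 to -0.10, adjusted p = 0.0748, edgeR), and Cd14 stood at -0.56 (-0.98 to -0.15, adjusted p = 0.0552), Tlr9 at -0.57 (-0.99 to -0.15, adjusted p = 0.0558) and Tlr7 at 0.37 (0.05 to 0.70, adjusted p = 0.0963). None of the 9 members passed, against 8.82% of all genes lower and 7.63% higher in Plcg2KO. At an unadjusted p under 0.05 the count was 4, against 34.9% of all genes, and DESeq2 called 3, against 23.1%. The ranges of the knockouts overlapped for each member, whereas 9.25% of all genes had every library lower in Plcg2KO. The fit of these 2 groups alone called 5 members, Tlr2, Tlr9 and Cd14 lower and Tlr3 and Tlr7 higher, against 42.1% of all genes, so these counts lie near the background. Relative to the markers 0 members and 0.0% of all genes were called, with 3 members (Tlr3, Tlr4 and Tlr7) at an unadjusted exact permutation p under 0.05, against 33.1% of all genes. The ratio of Tlr7 did not overlap between the knockouts (difference 0.54, exact permutation p = 0.00216, adjusted p = 0.0877). That p is the smallest possible, so a gene can pass only where many genes reach it, and nothing is read from 0 calls. Against the homeostatic genes Tlr7 was the 1 member called (adjusted p = 0.047, exact permutation), as were 1495 of 16316 genes.

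The rest of the pathway was read from lists of genes by role. Over all genes 7.63% were lower and 5.44% higher in Plcg2KO, and 8.16% and 7.56% in Trem2KO, so 1 or 2 called genes in lists of 6 to 16 are near the background, and nothing is read from such counts. Of 3 further receptors 2 passed the filter. Tlr12, which in mice senses a parasite profilin, was lower in Plcg2KO (-1.57, adjusted p = 1.42e-05, edgeR) and in Trem2KO (-0.89, adjusted p = 0.00452), and Tlr5 was called in neither. Of 6 accessory proteins 1 was lower and 1 higher in each knockout. The lower one was Unc93b1, the chaperone that brings endosomal receptors out of the endoplasmic reticulum, at -0.78 and -0.48 (adjusted p = 5.58e-05 and 0.00711), and the higher one was Lbp, the serum protein that passes lipopolysaccharide to CD14, at 0.53 and 0.52. Ly96, the partner of TLR4, stood at -0.12 and -0.53 and did not pass.

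Of 7 genes in the adaptor list 3 were lower in Plcg2KO. They were Tirap (-0.60), which bridges TLR2 and TLR4 to MYD88, Pik3ap1 (-0.57) and Myd88 (-0.45, adjusted p = 0.0208, edgeR). In Trem2KO 2 were lower, Ticam2 (-0.79), the bridge from TLR4 to TICAM1, and Tirap (-0.46), and Sarm1 was higher (0.51). Of 16 kinases and ubiquitin ligases 2 were lower in each, Irak1 in both (-0.37 and -0.27) with Ikbke (-0.87) in Plcg2KO and Chuk (-0.52) in Trem2KO. The kinase Tbk1 and the ligase Traf6 were called in neither. Of 8 transcription factors 3 were lower in Plcg2KO, Irf7 (-0.93), Irf5 (-0.91) and Irf3 (-0.46), and 1 in Trem2KO, Irf5 (-0.61). None of the 5 NF-kB subunits in that list (Nfkb1, Nfkb2, Rel, Rela, Relb) was called in either knockout.

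Of 13 negative regulators 2 were lower in Plcg2KO, Cd180 (-1.56), a receptor-like inhibitor of TLR4, and its partner Ly86 (-1.13). Both were lower in Trem2KO (-0.96 and -1.11), where Dusp1 (0.62) and Irak3 (0.43) were higher. Among induced targets 14 of 15 were in the table and 9 passed the filter. The chemokine genes Ccl3 and Ccl4 had the largest decreases of the list, Ccl3 at -3.22 and -2.62 (adjusted p = 1.05e-08 and 2.24e-07, edgeR) and Ccl4 at -3.25 and -2.63 (adjusted p = 4.57e-06 and 4.64e-05). Il1a (-0.72 and -0.95) and Nfkbiz (-0.43 and -0.74) were lower in both, and Cxcl10 in Plcg2KO (-0.94). Ptgs2, which neurons also express, was higher in Plcg2KO (0.54). In the libraries labelled Plcg2HET 10.9% of all genes were higher than in WT and 7.13% lower. Among the higher ones were Tlr12 (0.67), Lbp (0.50), Dusp1 (0.54) and, from the adaptor list, Sarm1, Slc15a4 and Ticam1 (0.53, 0.58 and 0.70). Irf3, Nfkb2 and Rela (0.45, 0.79 and 0.57) were higher too, and Ccl4 was lower (-1.0, adjusted p = 0.0499). Without the 3 libraries rich in Rn45s, only 4.89% of all genes were called either way in this comparison. In the fit of Plcg2HET and WT alone the share was 4.68%. Whether these pathway genes kept their calls in those fits was not tested.

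**Figure D5:**
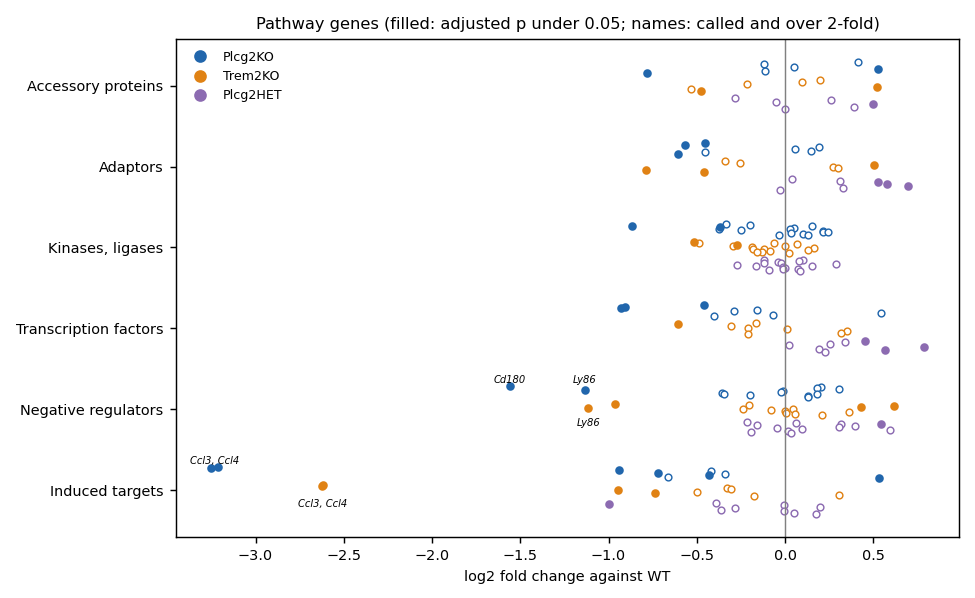
Log2 fold change against WT (x axis) of the genes of 6 pathway lists (y axis), 1 point per gene and comparison; filled points have an adjusted p under 0.05, and names are given to called genes past 2-fold. Ccl3 and Ccl4 stand apart at -3.25 to -2.62 in both knockouts.

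The genes whose levels were most like those of Tlr2 over the 24 libraries, by Pearson correlation of log2 CPM among tested genes, were Slc11a1 (0.985), a metal transporter of phagosomes, Ctsd (0.98), a lysosomal protease, Slc37a2 (0.976) and Cd14 (0.972). Those most like Cd14 were Tlr2 (0.972), St14 (0.971), Slc11a1 (0.971), Ctsd (0.969) and Slc37a2 (0.966). These values span genotype and sex together and share the libraries, so they are a description of likeness.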

How the data were processed

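Per the submitters' processing notes, reads were processed with STAR 2.7.10a, featureCounts 2.0.3 and build mm10. The authors deposited whole-number counts per gene with exon coordinates and summed exon length, per the file headers, and a table with expected counts and TPM. For the latter table the tool, and for the counts the strand setting, were not stated in the sources used here. TPM entered no test. Deposited expected counts were rounded for an alternative fit.

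Genes were kept by filterByExpr (minimum count 10 by genotype, 16316 genes), scaled by TMM, and fitted with edgeR 4.0.16 (R 4.3.3, robust quasi-likelihood, 1 mean per genotype and a sex term, all 24 libraries), with Benjamini-Hochberg adjustment over all genes and a threshold of 0.05. Nothing says how mice were related, so p-values measure the spread between these mice. The animal numbers in the sample titles run in a separate range for each genotype. A difference between genotypes therefore cannot be told apart from a difference between these series of animals. In simulated counts over 16206 genes for Plcg2KO against WT, 67 genes were changed 1.5-fold, 67 2-fold and 66 4-fold, without a sex difference. Of these, 61.2% at 1.5-fold and 85.1% at 2-fold were recovered, with 7 false calls among 169. The real comparison called 2133 of 16316 genes, so these rates need not hold there. Members and lists were chosen with earlier results of these data known. All 10 members and pathway genes called in either knockout could be named. Same-numbered libraries showed little shared deviation (33 pairs, correlations -0.258 to 0.187, median -0.0205, 4 pairs over 0.1). The codes were therefore not used as pairs in the main fit. Such correlations cannot show that the mice were unrelated. Alternatives were other scaling, filters, models, DESeq2 1.42.0, expected counts, GC and length offsets (GC known for 96.2% of genes), each sex alone, a fit without the 3 libraries rich in Rn45s, and each library left out. Values of a few list genes are not reported here.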

Additional observations from a re-analysis of the deposited data

Results flagged for a closer look

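Of 40 sets of 6 libraries (10 genes in 4 genotypes), 3 held a library far from the other 5 by Dixon's ratio, where chance gives about 1 in 20. Tlr2 in Plcg2KO F2 stood at 2.63 CPM, with the next library at 1.5, a gap of 0.689 of the range; its log2 fold change against WT was called with each library left out. Tlr3 in Trem2KO M3 stood at 13.5 CPM, with the next at 12.0 (ratio 0.638). Tlr8 in Plcg2HET M3 stood at 0.224 CPM, from 14 reads, with the next at 0.0434 (ratio 0.806).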

How the results depend on the processing

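In Plcg2KO and in Trem2KO against WT, Tlr2 and Cd14 were called lower in each of 12 other settings and without each of the 24 libraries, from -2.28 to -1.83 and -1.71 to -1.29 for Tlr2 over the settings and -2.55 to -1.55 and -1.52 to -1.16 for Cd14. Counts of members called moved as follows. In males alone they were 2 for Plcg2KO and 2 for Trem2KO against WT (2.25% and 0.44% of all genes), 0 for Plcg2HET against WT (0.0305%), 4 for Plcg2KO and 2 for Trem2KO against Plcg2HET (9.65% and 2.08%), and 3 in the test of any difference (4.59%). In females alone they were 0 for Plcg2HET against WT (2.53%) and 5 in the test of any difference (12.6%); fewer mice enter each of these. For Plcg2HET against WT the count was 0 with only these 2 groups (4.68%), 0 without the libraries rich in Rn45s (4.89%) and 2 with GC and length offsets (23.2%). For Plcg2KO against Trem2KO it was 2 with a mean CPM of at least 1 (21.3% of all genes), 2 without the sex term (16.5%), 5 with only these 2 groups (42.1%), 3 with DESeq2 (23.1%) and 1 without the libraries rich in Rn45s (19.1%). Relative to markers the counts were 5, 4 and 1 with homeostatic markers (Plcg2KO and Trem2KO against WT, then Plcg2KO against Trem2KO), and 5 for Trem2KO with a pseudocount of 0.1. With homeostatic markers Tlr13 reversed to -0.124 in Plcg2KO and -0.0447 in Trem2KO, and Tlr7 in Trem2KO to -0.051. Leaving out each library in turn gave 4 to 5, 5 to 6 and 0 to 2 members for Plcg2KO, Trem2KO and Plcg2HET against WT, 0 to 2 for Plcg2KO against Trem2KO, and relative to markers 7 to 8, 5 to 8 and 0 to 3 (the last for Plcg2KO against Trem2KO). For Plcg2KO and Trem2KO against Plcg2HET and the test of any difference it gave 6 to 8, 5 to 6 and 7 to 8. Relative to markers, Tlr13 lost its call in Plcg2KO without WT M2, M3 or F1 (adjusted p up to 0.0559, exact permutation). In Trem2KO, Tlr13 lost it without WT M2, M3, F1 or Trem2KO M2, Tlr3 without WT F1, F2, F3 or Trem2KO M1, M2, M3, and Tlr7 without WT M1, M3, F1, F2 or Trem2KO M1, M2, M3, F2 (adjusted p up to 0.0538, 0.0786 and 0.0778). The cause of these changes was not tested. With the replicate code as a replicate block, the counts were 4, 5, 1 and 0 in the first 4 comparisons, and the only member call lost was Tlr3 in Trem2KO (adjusted p = 0.0761, edgeR). Tlr8, with at most 14 reads a library, is limited by depth.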

Other observations

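The sex term of the fit was read after its values were seen. Tlr2 was lower in males than in females by 0.72 in log2 terms (SE 0.14, edgeR over all genotypes, adjusted p = 0.00233), Tlr1 by 0.70 (adjusted p = 0.0144), Tlr13 by 0.58 (adjusted p = 0.00344) and Tlr7 by 0.50 (adjusted p = 0.0114). Cd14 stood at -0.49 and did not pass (adjusted p = 0.0705). Over all 16316 genes 2.27% were lower and 0.0981% higher in males. In WT each of the 3 females lay above each of the 3 males for Tlr1, Tlr2, Tlr7, Tlr13 and Cd14, as for 15.6% of all 16316 genes, with means of 9.05 against 4.61 CPM for Tlr2 and 17.2 against 9.66 for Cd14. In Plcg2KO the Tlr2 means were 1.81 CPM in 2 females and 1.31 in 4 males, whose ranges overlapped. Trem2, a microglial gene outside the family, stood at 114 CPM in WT females and 51.2 in WT males, without overlap. Tlr7 and Tlr13 lie on chromosome X, and Tlr1 and Tlr2 do not.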
